A study of Mus musculus with 12 samples.

Results

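The genes described here lie on mouse chromosome 8 between 70 and 80 Mb (build mm10), a stretch where DKK1 and wild-type mice differ in expression. The members are the genes of the deposited count table whose start falls in that window, leaving out Hapln4, Hmox1, Il12rb1, Kcnn1, Ncan and Plvap. They number 144 of the 25124 genes in the table. Of these 128 were protein-coding, 15 non-coding and 1 a small nucleolar RNA gene, with 81 on the plus and 63 on the minus strand. A filter on low counts left 124 members for testing, of 17612 genes in all. The 20 members not tested had at most 21 counts in any library and 2 of them had 0 counts throughout. The window was chosen from genotype differences measured in these libraries, so those differences are given as a description with no p-value, and nothing is supported with them. The lesion comparisons and the interaction were not used in that choice and are given with their tests. The interaction is the lesioned minus the intact genotype difference, so it is not independent of those differences.

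RNA was sequenced from mouse brain 28 days after MCAo, the blocking of the middle cerebral artery that models ischemic stroke. DKK1 mice carried Gt(ROSA)26Sor tm1.1(rtTA,EGFP)Nagy, which makes the doxycycline-dependent activator rtTA and EGFP from the ROSA26 locus, Hprt tm1(tetO-Dkk1)Spdl, a doxycycline-responsive Dkk1 transgene at Hprt, and the Wnt reporter Tg(TCF/Lef1-lacZ)34Efu/J. Wild-type mice were C57BL6/J, and the strain background of the DKK1 mice is not given in the sources used here. Every mouse was given doxycycline at 200 mg/kg, with induction 3 days after MCAo, and every mouse had a stroke. Each genotype was sampled on the lesioned, ipsilateral side and on the intact, contralateral side, with 3 libraries in each of the 4 groups. No group carried the transgenes without doxycycline, so induced DKK1, the other alleles and any other DNA that differs between the mice cannot be told apart. Separate animals are not named in the labels. The p-values therefore cover the spread between libraries alone, part of which may be technical.

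Libraries held 21209920 to 26911840 counts. Dkk1, the secreted Wnt antagonist that the transgene encodes, had 0 counts in the 6 wild-type libraries and 4 to 44 in the DKK1 libraries. The defining markers of neurons, astrocytes, oligodendrocytes and microglia were present in every library. Wild-type ipsilateral 1 stood apart from its group, at a chi-square of 25.4 and 19.5 per degree of freedom against the other wild-type ipsilateral libraries, which differed from each other by 5.46. Wild-type contralateral 1 (14.6 and 12.7, against 3.95 between the other two) and DKK1 ipsilateral 1 (13.3 and 14.5, against 7.1) stood apart less far. Results that rest on 1 of these are given with and without it. In a tissue library, fewer cells of a type and less RNA per cell cannot be told apart.

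The proximal part of the window is dense with small genes of unrelated function. It holds neuronal genes such as Unc13a and Rab3a, which prime and dock synaptic vesicles, immune genes such as Jak3, Ifi30 and Bst2, and housekeeping genes for ribosomes, splicing and vesicle traffic. The distal part is sparser and holds long genes such as Arhgap10, Nr3c2 and Zfp827. Genes that share a stretch of chromosome are usually inherited together. Neighbouring genes may also be measured partly on the same reads where their models overlap. Cers1 and Gdf1 share 15814 bases on the same strand and had nearly the same counts, so they are 1 measurement. Counts of members include both names. Borcs8 overlaps the read-through model Gm45929, which also overlaps Mef2b, and Jak3 overlaps Insl3 by 1326 bases on the same strand. Whether strand was used in counting is not given in the sources used here, so Homer3 with Ddx49 (1496 bases) and Rfxank with Nr2c2ap (2425 bases), which overlap on opposite strands, are uncertain too.

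Promoter sequences are shown for the members with the largest fold difference between genotypes among those that differed by genotype in both hemispheres (3 lower and 1 higher in DKK1 mice), and for Bst2, an interferon-induced antiviral membrane protein that rose in the lesion. They come from RefSeq on GRCm38.p6, the assembly of mm10, and run from 250 bases before to 50 bases after the gene start, 5′ to 3′ on the gene's strand. Gm10654 lies at chr8:70931065-70931364 (plus strand), Slc5a5 at chr8:70892708-70893007 (minus), B3gnt3 at chr8:71701751-71702050 (minus), Ocel1 at chr8:71371048-71371347 (plus) and Bst2 at chr8:71537423-71537722 (minus). Capitals mark matches on either strand to these patterns. TATAAA is the core of the TATA box. CCAAT is the site of the nuclear factor Y complex. GGGCGG is the GC box. CACGTG is the E-box. The interferon-stimulated response element (ISRE) is searched as GAAA, then a pair of any bases, then GAAA once more. TTCNNNGAA is the pattern of STAT factor sites.
Gm10654: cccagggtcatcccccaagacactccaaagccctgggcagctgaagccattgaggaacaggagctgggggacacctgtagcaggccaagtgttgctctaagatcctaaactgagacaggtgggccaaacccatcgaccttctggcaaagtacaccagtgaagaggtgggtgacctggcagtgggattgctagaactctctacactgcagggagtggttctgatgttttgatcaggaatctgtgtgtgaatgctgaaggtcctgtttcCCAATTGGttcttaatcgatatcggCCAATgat
Slc5a5: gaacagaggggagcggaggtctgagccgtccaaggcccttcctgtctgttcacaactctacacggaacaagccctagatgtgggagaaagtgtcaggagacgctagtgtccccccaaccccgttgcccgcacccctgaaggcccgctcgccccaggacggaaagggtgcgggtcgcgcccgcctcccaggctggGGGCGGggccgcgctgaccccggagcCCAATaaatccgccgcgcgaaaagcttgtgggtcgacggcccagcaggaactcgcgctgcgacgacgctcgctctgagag
B3gnt3: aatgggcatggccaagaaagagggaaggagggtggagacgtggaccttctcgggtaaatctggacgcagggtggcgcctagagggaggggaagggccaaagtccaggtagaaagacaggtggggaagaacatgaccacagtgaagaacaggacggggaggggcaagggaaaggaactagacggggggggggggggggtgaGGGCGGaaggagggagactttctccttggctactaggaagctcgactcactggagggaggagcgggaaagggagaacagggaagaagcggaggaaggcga
Ocel1: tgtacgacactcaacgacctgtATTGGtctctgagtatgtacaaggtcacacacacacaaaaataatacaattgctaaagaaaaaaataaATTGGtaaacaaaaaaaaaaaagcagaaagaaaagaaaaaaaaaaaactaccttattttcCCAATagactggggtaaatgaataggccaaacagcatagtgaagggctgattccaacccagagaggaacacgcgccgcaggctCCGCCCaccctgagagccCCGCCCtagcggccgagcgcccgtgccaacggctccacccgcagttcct
Bst2: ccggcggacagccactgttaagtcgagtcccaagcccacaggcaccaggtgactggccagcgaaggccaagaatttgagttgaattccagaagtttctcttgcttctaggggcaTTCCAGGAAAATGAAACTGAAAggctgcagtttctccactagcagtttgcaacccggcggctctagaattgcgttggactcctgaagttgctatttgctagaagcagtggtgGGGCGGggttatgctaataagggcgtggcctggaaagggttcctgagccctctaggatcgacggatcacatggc

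The Bst2 promoter held 2 overlapping ISRE matches, which run into 1 match to TTCNNNGAA, and the other 4 promoters held none of either. Gm10654 and Ocel1 held 3 CCAAT matches each, those of Gm10654 after the gene start and a pair of them overlapping. Of the 144 members, 121 had a RefSeq promoter whose start lay within 100 bases of the start in the count table. GC boxes were in 61.2% of these 121 promoters and in 35.7% of the 32851 promoters in the table, and TATAAA in 5.79% against 13.6%. CCAAT was in 42.1% against 37.4%, the ISRE pattern in 3.31% against 3.44%, TTCNNNGAA in 5.79% against 8.3% and CACGTG in 4.96% against 7.15%. Members' promoters had a median of 19 CpG dinucleotides, against 7 in the table. The 121 were limited to genes of the count table with a matched start, while the 32851 were all promoters listed. The sets are thus unlike, and no trait of the window is read from these values. A match is a description of letters, not a site. These are sequences of the reference strain, and the sequence carried by the DKK1 mice was not read here.

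In the intact hemisphere 9 of the 124 tested members were called different by genotype (called, here, means under 0.05 after Benjamini-Hochberg adjustment of edgeR's quasi-likelihood test across all tested genes). That was 7.26% of the members, against 0.88% of all tested genes. Of these 9, 2 were higher in DKK1 mice (background 0.369%) and 7 lower (background 0.511%). In the lesioned hemisphere 18 members were called, or 14.5% against 2.37% of all genes, 9 higher (background 1.52%) and 9 lower (background 0.846%). Nothing is read from these shares, since the window was chosen on such differences. The median log2 fold change over the members was −0.02 on the intact and 0.02 on the lesioned side, beside 0 and 0.02 over all genes.

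Called members were not spread along the window. All of them lay between Borcs8, which starts at 70139499, and Zfp617, which ends at 71934630, a span of 1800 kb. From 70 to 71 Mb 6 of 52 tested members were called on the intact and 11 on the lesioned side, and from 71 to 72 Mb 3 and 7 of 32. From 72 to 80 Mb edgeR called 0 of 40 on either side, with 5 and 7 at an unadjusted p under 0.05 (6.08% and 20.9% of all genes). There limma-voom called 0 on both sides (0.761% and 3.94% of all genes), and DESeq2 called 0 and 1, namely the vesicle traffic gene Rab8a (1.52% and 7.21% of all genes). The boundary at 72 Mb was chosen after seeing these values. Some alternatives made calls beyond it. With the replicate number as an additive block Nwd1 was called on the lesioned side. Leaving out 1 library brought calls of Klf2 on the intact side without wild-type contralateral 1, Ednra, Rab8a and Tpm4 on the lesioned side without wild-type ipsilateral 1, and Hhip and Rab8a without DKK1 ipsilateral 1.

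**Figure D1:**
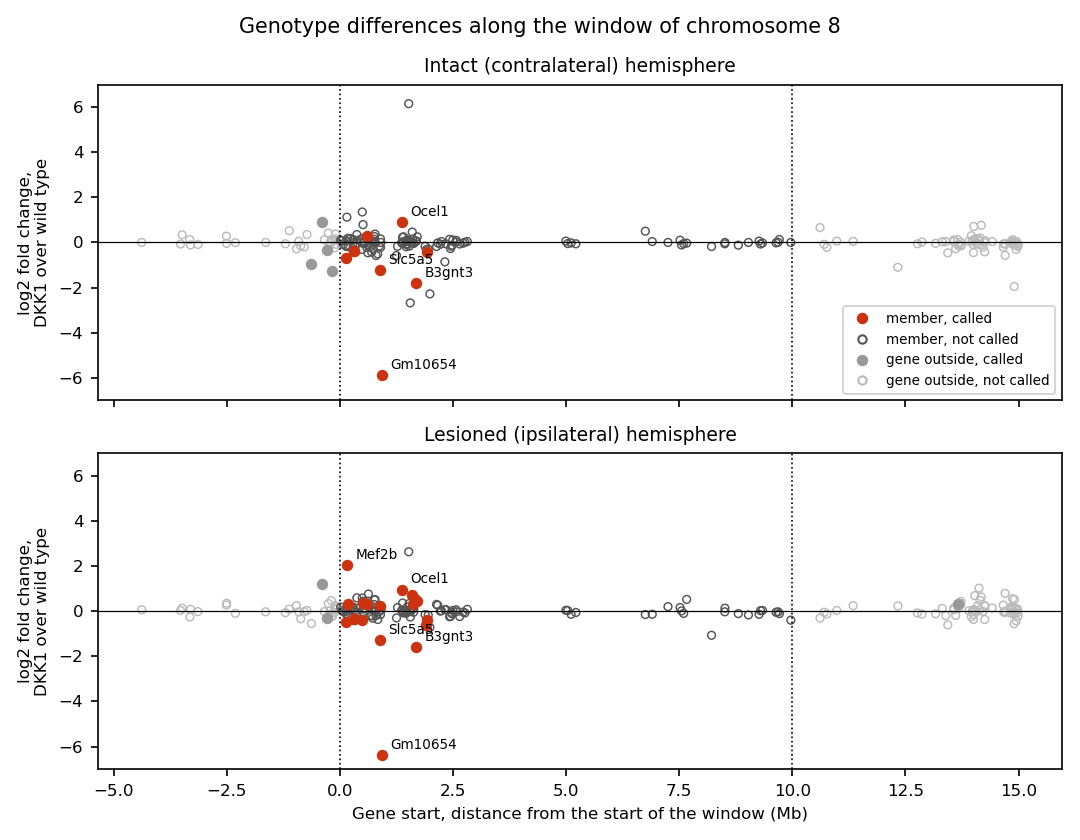
Log2 fold change of DKK1 over wild type (y axis) against gene start in Mb from the start of the window (x axis). Members and tested genes close to the window on each side are shown, in the intact (top) and the lesioned hemisphere (bottom). Dotted lines mark the window, and filled points are called by edgeR. Called members sit in the first 2 Mb of the window, with Gm10654 lowest at −5.88 and −6.37. Just before the window, 4 genes called on the intact side start between 69368612 and 69822565.

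The median size of the log2 fold change, without its sign, was 0.168 on the intact and 0.193 on the lesioned side from 70 to 72 Mb. From 72 to 80 Mb it was 0.0582 and 0.0902, and over all tested genes 0.0759 and 0.134. Across genes, which are not independent, the intact and the lesioned fold changes had a Spearman correlation of 0.81 over the 84 members before 72 Mb and of 0.0173 over the 40 members after it. These comparisons use different libraries, which may come from the same animals. The boundary at 72 Mb was placed where the calls end, so the contrast between the stretches is a description and supports nothing. Outside the window, 4 of 46 tested genes from 60 to 70 Mb were called on the intact side (Gm10033, Zfp868, Zfp869 and Lpar2) and 2 on the lesioned side (Zfp868 and Zfp869). These were 8.7% and 4.35%, against 0.88% and 2.37% of all genes. In this stretch limma-voom called 3 on each side, and DESeq2 called 5 intact and 7 lesioned. The 4 called by edgeR on the intact side start between 69368612 and 69822565, so called genes lay on both sides of the 70 Mb edge. Zfp868 had log2 fold changes of 0.90 on the intact and 1.21 on the lesioned side. From 80 to 90 Mb 0 of 102 were called on the intact side by edgeR, limma-voom and DESeq2, with 11 at an unadjusted edgeR p under 0.05. On the lesioned side edgeR called 1 (Gipc1), or 0.98% against 2.37% of all genes. There limma-voom called 3 (3.94% of all genes) and DESeq2 called 6 (7.21% of all genes). At an unadjusted edgeR p under 0.05 there were 25 on that side (20.9% of all genes).

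None of the genes nearest the edges, named here, was called in either hemisphere. Just inside the window, log2 fold changes on the intact and the lesioned side were 0.11 and 0.18 for the cohesin loader gene Mau2, 0.07 and 0.04 for the splicing gene Sugp1, 0.13 and −0.11 for Anapc10, a subunit of the anaphase-promoting complex, and 0.00 and −0.40 for the hedgehog-interacting protein gene Hhip. Just outside it, they were 0.37 and 0.25 for Tssk6, −0.08 and 0.08 for Gatad2a, and 0.66 and −0.31 for Frem3.

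All 9 members called on the intact side were also called on the lesioned side, with the same sign, which is 100% of the former and 50% of the latter list. Gm10654, a predicted gene model at 70931315 to 70933037, was nearly absent from DKK1 mice. Wild-type libraries had 5.29, 4.19 and 4.48 CPM (counts scaled to library size) on the intact and 4.9, 3.92 and 5.37 on the lesioned side. DKK1 libraries had 0.098, 0.082 and 0.0436 CPM on the intact and 0.0392, 0 and 0.112 on the lesioned side. In raw counts these were 98 to 141 in each wild-type library and 0 to 3 in each DKK1 library, so the groups were far apart on both sides. The log2 fold change was −5.88 ± 0.40 (SE) intact and −6.37 ± 0.42 lesioned, and over the alternatives it ran from −6.09 to −4.63 intact and from −7.55 to −4.92 lesioned.

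Slc5a5 encodes the sodium iodide symporter of thyroid cells (70882889 to 70892757). Its level was 24.3, 22.7 and 28.9 CPM in wild-type and 9.21, 12.5 and 10.5 in DKK1 libraries of the intact hemisphere. On the lesioned side it was 23.8, 25.4 and 29.9 against 11.6, 11.1 and 9.88. Every wild-type library lay above every DKK1 library, with a log2 fold change of −1.23 ± 0.14 intact and −1.28 ± 0.13 lesioned.

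B3gnt3, an enzyme that extends sugar chains with N-acetylglucosamine (71691720 to 71701800), was a low-level gene. Wild-type libraries had 2.59, 2.95 and 2.36 CPM intact and 3.96, 3.45 and 2.78 lesioned. DKK1 libraries had 0.98, 0.615 and 0.698 CPM intact and 0.979, 1.07 and 1.3 lesioned, again with no overlap. The log2 fold change was −1.79 ± 0.24 and −1.60 ± 0.23. Borcs8, a subunit of the BORC complex that moves lysosomes along microtubules, was lower too (70139499 to 70148634). It had 23.5, 24.7 and 22 CPM in wild-type against 13.2, 15 and 15.4 in DKK1 intact hemispheres, and 34.6, 26.2 and 29.2 against 20, 21.7 and 23.6 in lesioned ones. Its fold changes of −0.69 ± 0.11 and −0.47 ± 0.11 were smaller on deposited TPM, where another transcript stands for the gene and neither call was made.

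Cers1, the main ceramide synthase of neurons, shares its values with Gdf1, a ligand of the TGF-beta family (70315775 to 70331588 for Cers1). Cers1 had 121, 125 and 120 CPM in wild-type and 94.6, 92.4 and 94.7 in DKK1 intact hemispheres. In lesioned hemispheres it had 91, 103 and 101 against 77.2, 77.6 and 76.1 CPM. The log2 fold change was −0.38 ± 0.05 and −0.35 ± 0.05 for either name, small but with no overlap between the groups. Zfp617, a zinc finger gene (71922825 to 71934630), had means of 21.9 ± 0.537 (SD, n = 3) and 16.3 ± 0.746 CPM intact and 21 ± 1.38 and 16.1 ± 1 lesioned, with −0.43 ± 0.08 and −0.39 ± 0.08.

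The 2 members higher in DKK1 mice on both sides were Ocel1 and Ssbp4. Ocel1, a gene with an occludin and ELL domain (71371298 to 71373689), had 8.4, 7.44 and 6.08 CPM in wild-type and 12.9, 13.8 and 14 in DKK1 intact hemispheres. On the lesioned side it had 8.49, 8.32 and 7.99 against 14.3, 16 and 17.5 CPM. The log2 fold change was 0.89 ± 0.12 and 0.95 ± 0.12, and no wild-type library reached a DKK1 library. Ssbp4, a single-stranded DNA binding protein gene (70597490 to 70608314), had 107, 124 and 113 against 145, 134 and 142 CPM intact and 110, 103 and 108 against 131, 134 and 133 lesioned. Its log2 fold change was 0.29 ± 0.06 and 0.31 ± 0.06.

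**Figure D2:**
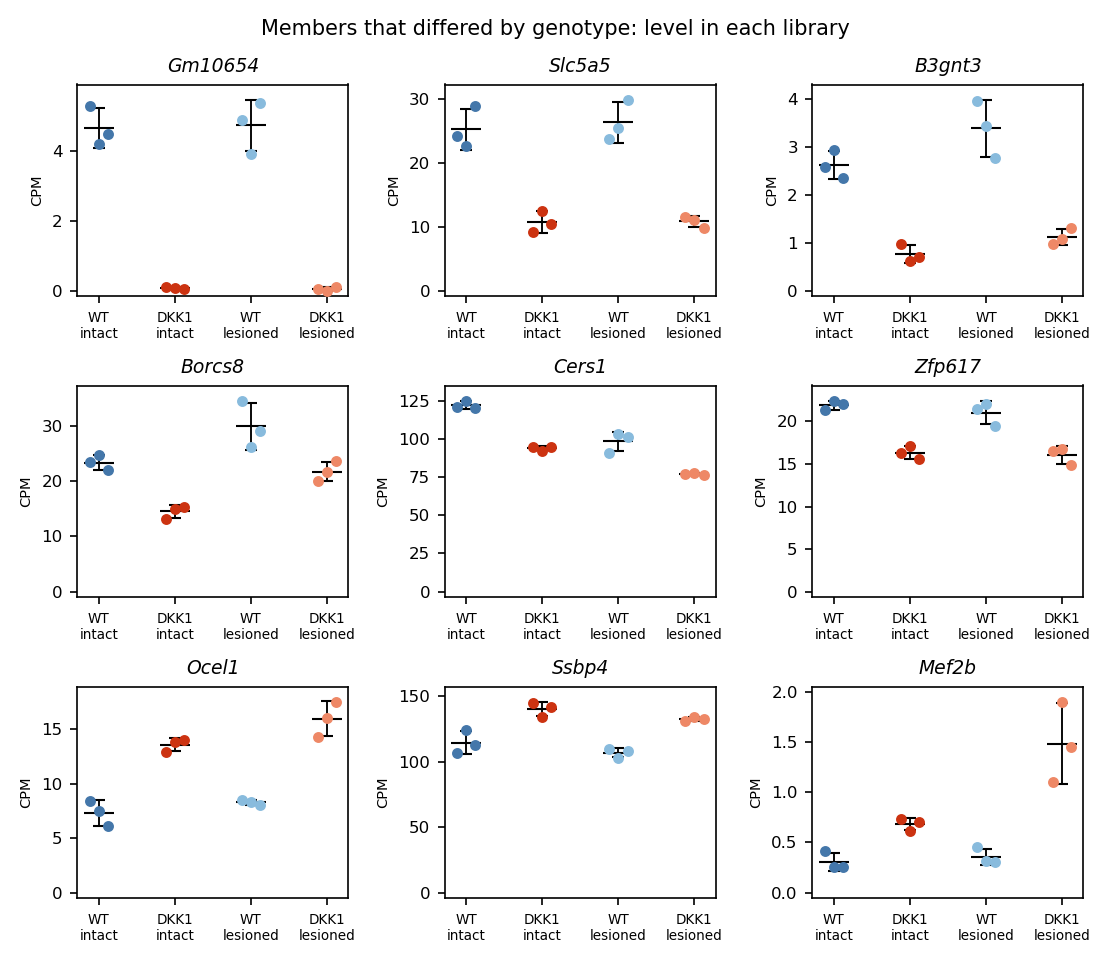
CPM in each library (points, y axis from 0) for 9 members called in a genotype comparison, by genotype and hemisphere (x axis), with the group mean (horizontal line) and SD (bars, n = 3). Gm10654 sits at 0.112 or below in the DKK1 libraries, Ocel1 and Ssbp4 are higher in them, and Mef2b is highest in the lesioned DKK1 libraries.

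Of the 9 calls on the intact side, 6 held under every alternative, or 5 of 8 with Cers1 and Gdf1 counted once. The Borcs8 call was lost without wild-type contralateral 2 or DKK1 contralateral 1, the Ssbp4 call without wild-type or DKK1 contralateral 1 or 3, wild-type ipsilateral 3 or DKK1 ipsilateral 2 or 3, and the Zfp617 call without any 1 of the 6 contralateral libraries. Their values over all alternatives were −0.73 to −0.34 for Borcs8, 0.25 to 0.35 for Ssbp4 and −0.46 to −0.39 for Zfp617. With the genotype-by-number replicate block as a random effect, Ssbp4 was not called on the intact side.

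A further 9 members were called on the lesioned side and not on the intact side, where each had the same sign. One of them, Tmem59l, was called on the intact side too by DESeq2, with the additive replicate block and without wild-type ipsilateral 1. Mef2b, a MADS-box transcription factor gene (70152761 to 70167488), had 0.449, 0.317 and 0.304 CPM in wild-type and 1.1, 1.9 and 1.45 in DKK1 lesions. On the intact side it had 0.413, 0.257 and 0.253 against 0.735, 0.615 and 0.698. The groups did not overlap in either hemisphere, and the log2 fold change was 2.04 ± 0.31 lesioned and 1.12 ± 0.34 intact. Mef2b overlaps the read-through model Gm45929, so part of its count may be shared.

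Fcho1, which starts clathrin-coated pits, had 102, 116 and 106 CPM in wild-type against 161, 144 and 144 in DKK1 lesions. On the intact side it had 155, 159 and 142 against 190, 173 and 179, and the log2 fold change was 0.47 ± 0.07 lesioned and 0.25 ± 0.07 intact. Fam129c was higher in DKK1 lesions (0.71 ± 0.15). The zinc finger gene Zfp882 (−0.60 ± 0.13) and the Golgi protein gene Tmem59l (−0.38 ± 0.08) were lower. Also called, and chosen after their values were seen, were Rex1bd (0.36 ± 0.06), Tmem161a (0.32 ± 0.07) and Colgalt1, a galactosyltransferase of collagen (0.33 ± 0.08).

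The number called on the lesioned side rests on single libraries. It was 29 without wild-type ipsilateral 1, 20 of them higher in DKK1 mice. It was 9 without wild-type ipsilateral 2 or 3, 8 without DKK1 ipsilateral 2 or 3, and 11 without wild-type contralateral 3 or DKK1 contralateral 2 or 3. Among the 15 named members called on this side, 8 held under every alternative that gave an adjusted p, which DESeq2 did not for Mef2b: Cers1, Gdf1, Slc5a5, Gm10654, Ocel1, B3gnt3, Mef2b and Fcho1. That is 7 of 14 with Cers1 and Gdf1 counted once. Over the alternatives other values ran from −0.55 to −0.17 for Borcs8, 0.27 to 0.33 for Ssbp4, −0.44 to −0.34 for Zfp617, 0.58 to 0.79 for Fam129c, −0.68 to −0.55 for Zfp882, and −0.48 to −0.32 for Tmem59l. The call of each of these was lost without DKK1 ipsilateral 2 and also without DKK1 ipsilateral 3.

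Some members of few counts or uneven levels were not called by edgeR. Ccdc194, chosen after its values were seen, had 0 counts in the 3 wild-type and 24 over the DKK1 intact libraries, which puts it at least 8.71-fold higher in DKK1 mice against a floor of 3 counts over the group. It was called on the intact side by DESeq2, by limma-voom, with the genotype-by-number replicate block and without wild-type ipsilateral 1. On the lesioned side it was called by limma-voom, on deposited TPM, with that block and without that library. Tmem221 had 23 counts over the wild-type and 3 over the DKK1 intact libraries, a ratio of 7.04 (exact 95% interval 2.13 to 36.6), and was called on the intact side on deposited TPM. Bounds and intervals cover counting error only. Klf2, a transcription factor gene that responds to blood flow in endothelium and is also named after its values were seen, had 9.19, 27.3 and 26.8 CPM in wild-type and 10.4, 11.9 and 12.4 in DKK1 intact hemispheres, so wild-type contralateral 1 lay below the DKK1 libraries and the groups overlapped.

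Whether a genotype difference itself differed between hemispheres was tested by the interaction. By edgeR 0 of 124 members passed (background 0.00568%), with 8 at an unadjusted p under 0.05 (background 9.59%), 0 by limma-voom (background 0%) and 1 by DESeq2 (background 0.369%). Among the 9 members called on both sides, the largest interaction was 0.49 on the log2 scale and the smallest edgeR adjusted p was 0.687. These 9 were picked for calls on both sides, which favours a small interaction, so no result is read from these values. A p that misses the threshold does not show that the hemispheres were alike.

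Isyna1, the enzyme that makes inositol phosphate, came nearest. It had 43.5, 46.7 and 45.6 CPM in wild-type and 37.7, 38.9 and 40.2 in DKK1 intact hemispheres, and 56.9, 55.2 and 53.9 against 58.8, 67.6 and 71.3 in lesioned ones. DKK1 libraries thus lay below wild type on the intact side and above it on the lesioned side, with no overlap on either. The interaction was 0.47 ± 0.10 (edgeR adjusted p = 0.311). It passed with the genotype-by-number replicate block (edgeR adjusted p = 0.0253), with DESeq2 (adjusted p = 0.0152), and in edgeR without wild-type ipsilateral 1 (adjusted p = 0.0391) or DKK1 ipsilateral 1 (adjusted p = 0.027). The next smallest p-values were those of Tmem221 (edgeR adjusted p = 0.435), Rab8a (0.28 ± 0.10, edgeR adjusted p = 0.46), the motor protein gene Myo9b (0.32 ± 0.13, edgeR adjusted p = 0.488) and Fcho1 (0.22 ± 0.10, edgeR adjusted p = 0.507). No fitted value is given for Tmem221, which had 3 counts over a group.

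The lesion comparisons ask how the members responded to stroke in each genotype. In wild-type mice 49 of 124 members passed, or 39.5% against 37.2% of all tested genes, with 28 higher (background 21.2%) and 21 lower (background 15.9%) in the lesioned hemisphere. In DKK1 mice 56 passed, or 45.2% against 50.1% of all genes, with 35 higher (background 27.5%) and 21 lower (background 22.6%). These shares are near the background and so are no result about the window. The median log2 fold change was 0.04 and 0.05, beside 0.01 and 0.01 over all genes. Without wild-type ipsilateral 1 the wild-type count was 33, with 18 higher and 15 lower.

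Members called in both genotypes numbered 43, with 28 higher and 15 lower in the lesion, while 6 were called in wild-type and 13 in DKK1 mice alone. Without wild-type ipsilateral 1 these counts were 30, 3 and 29. The count for DKK1 mice alone was also 20 without wild-type contralateral 2, 7 without DKK1 contralateral 2 and 6 without DKK1 ipsilateral 3. The count for wild-type mice alone was 3 without wild-type contralateral 2 or ipsilateral 3 and 2 without wild-type contralateral 3. The difference between the genotypes is what the interaction above tests. Of the 18 members called in a genotype comparison, 7 passed the lesion comparison of wild-type mice and 8 that of DKK1 mice, as did 42 and 48 of the other 106 members. With the genotype-by-number replicate block 8 further members passed in wild-type and 9 in DKK1 mice. Named ones were Ddx49 (0.21, edgeR adjusted p = 0.0223) and Zfp827 (−0.25, edgeR adjusted p = 0.00465) in wild-type, and Hhip (−0.24, edgeR adjusted p = 0.0469) and Mau2 (0.11, edgeR adjusted p = 0.0486) in DKK1 mice.

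**Figure D3:**
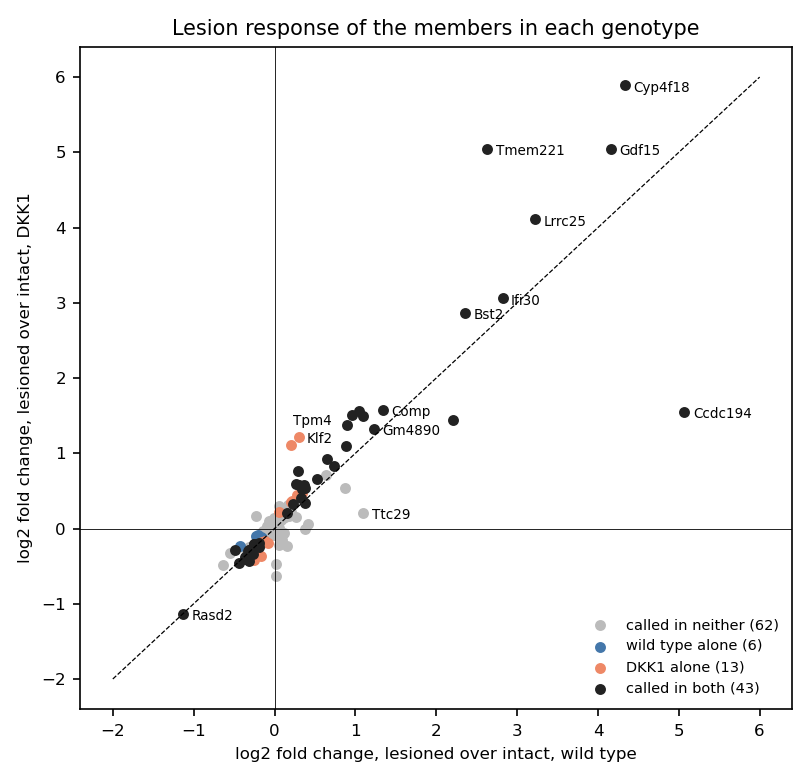
Log2 fold change of the lesioned over the intact hemisphere in DKK1 mice (y axis) against wild-type mice (x axis) for the 124 tested members, coloured by where edgeR called them, with the line of equal change dashed. Most called members lie near the line, with Gdf15 and Cyp4f18 at the upper right and Rasd2 at the lower left; the points of Ccdc194 and Tmem221 are fitted values for groups with 0 or 3 counts and give no size.

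Markers of several cell types moved with the lesion. Of the 3 neuronal markers 3 fell in each genotype, with summed levels of 2190 to 2340 CPM in wild-type and 2220 to 2440 in DKK1 intact hemispheres, and 1470 to 1890 and 1620 to 1840 in lesioned ones. All 3 oligodendrocyte markers and 2 of 3 astrocyte markers rose in each genotype (1740 to 1910 and 1670 to 1910 CPM intact, 2170 to 2390 and 2140 to 2430 lesioned for oligodendrocytes). The 3 choroid plexus markers rose in wild-type mice (57.4 to 117 CPM intact, 168 to 311 lesioned), while 0 passed in DKK1 mice (104 to 154 intact, 149 to 329 lesioned), and 0 passed the interaction. Of 3 microglial markers 2 rose in wild-type and 3 in DKK1 mice, from 82.2 to 134 and 82.9 to 113 CPM on the intact side to at most 303 and 295 on the lesioned side. All 3 markers rose in both genotypes for T cells (0.0855 to 0.375 and 0.174 to 0.533 CPM intact, 4.72 to 8.64 and 12.5 to 17.5 lesioned), B cells (0.342 to 0.938 and 0.123 to 0.539 intact, 18.8 to 25 and 41.9 to 73 lesioned) and fibroblasts (23 to 55.7 and 23 to 32.4 intact, 178 to 427 and 323 to 428 lesioned). No marker list had all members at 0. Their part in the lesion results of the members was not tested. No marker on these lists was called in the intact genotype comparison, and in the lesioned one 1 B cell and 1 endothelial marker, both higher in DKK1 mice.

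Of 10 tested members of the immune and interferon list, 7 rose in the lesion of wild-type mice and 9 in that of DKK1 mice, and 0 fell in either. Their median log2 fold change was 1.63 in wild-type and 1.5 in DKK1 mice, beside 0.01 and 0.01 over all genes. In wild-type mice 7 also rose without wild-type ipsilateral 1. Over all tested genes 21.2% rose and 15.9% fell in wild-type mice, and 27.5% and 22.6% in DKK1 mice. The list was chosen with earlier results of these data known and is short, so its counts are a description and no result is read from them. It counts Colgalt1, which modifies collagen, the endothelial gene Klf2 and Ushbp1 beside genes of immune cells. In the lesioned genotype comparison 1 of the 10 was called (Colgalt1), a call lost in 13 of 20 alternatives. These left 0 members of the list called, among them the additive replicate block and leaving out wild-type ipsilateral 2 or 3, DKK1 ipsilateral 2 or 3, wild-type contralateral 2 or 3, or any DKK1 contralateral library. DESeq2, limma-voom and the genotype-by-number replicate block each called 2 (Colgalt1 and Jak3). Without DKK1 ipsilateral 1, 3 were called, and 5 without wild-type ipsilateral 1. Ifi30, a lysosomal thiol reductase used in antigen presentation, had 5.1, 3.98 and 4.43 CPM in intact and 43.3, 22.2 and 30.1 in lesioned wild-type hemispheres. In DKK1 mice it had 5.59, 4.92 and 5.71 against 41.3, 43.5 and 50.7 CPM. Each lesioned library lay above each intact one, and wild-type ipsilateral 1 was the highest of its group. The rise was 2.82 ± 0.22 in wild-type (edgeR adjusted p = 1.81e-05) and 3.06 ± 0.22 in DKK1 mice (edgeR adjusted p = 2.07e-06).

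Bst2, whose promoter is shown above, had 6.08, 2.82 and 3.63 CPM in intact and 29.5, 16.2 and 19.2 in lesioned wild-type hemispheres. In DKK1 mice it had 3.38, 4.84 and 3.01 against 23.1, 28.9 and 30.2. The intact and lesioned libraries did not overlap, and it rose by 2.36 ± 0.30 (edgeR adjusted p = 0.000185) and 2.87 ± 0.30 (edgeR adjusted p = 2.28e-05). Lrrc25, a leucine-rich repeat protein of myeloid cells, rose from 0.836 ± 0.106 to 7.83 ± 2.87 CPM (SD, n = 3) in wild-type and from 0.611 ± 0.111 to 10.6 ± 2.4 CPM in DKK1 mice (edgeR adjusted p = 3.04e-05 and 2.49e-06). Jak3, the kinase of lymphocyte cytokine receptors, was named after its values were seen. It had 12.5, 16.4 and 17 CPM in intact and 34.2, 30.4 and 29.9 in lesioned wild-type hemispheres, and 12.2, 18.6 and 16.2 against 38.5, 46.1 and 54.6 in DKK1 mice. It rose by 1.04 ± 0.17 (edgeR adjusted p = 0.000811) and 1.56 ± 0.17 (edgeR adjusted p = 2.32e-05).

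Growth factor and receptor genes were mixed. In wild-type mice 5 of 12 rose and 3 fell, and in DKK1 mice 5 rose and 1 fell, with medians of 0.14 and 0.04. Without wild-type ipsilateral 1, 3 rose and 3 fell in wild-type mice. Over all tested genes 21.2% rose and 15.9% fell in wild-type mice, and 27.5% and 22.6% in DKK1 mice. With so few genes, no result is read from the list counts. Gdf15, a stress-induced cytokine, was close to 0 in intact hemispheres, at 0.563, 0.128 and 0.253 CPM in wild-type against 0.147, 0.369 and 0.349 in DKK1 libraries. Lesioned hemispheres had 5.61, 4.87 and 7.12 CPM in wild-type against 3.64, 14.1 and 12 in DKK1 libraries, where library 1 was far below the other two. The rise was 4.16 ± 0.58 (edgeR adjusted p = 0.000336) and 5.05 ± 0.59 (edgeR adjusted p = 4.35e-05).

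Ednra, the endothelin receptor of vascular smooth muscle, and Comp, a matrix protein of cartilage and scar, were named after their values were seen. Ednra rose from 5.38 ± 0.854 to 10.5 ± 2.64 CPM in wild-type and from 5.28 ± 0.257 to 15 ± 0.839 in DKK1 mice (0.96 ± 0.17 and 1.51 ± 0.17, edgeR adjusted p = 0.00154 and 3.29e-05). Comp rose by 1.34 ± 0.36 (edgeR adjusted p = 0.0138) and 1.58 ± 0.35 (edgeR adjusted p = 0.00282), and the wild-type call was lost without wild-type ipsilateral 1 (edgeR adjusted p = 0.0702).

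Cyp4f18, a cytochrome enzyme that inactivates leukotrienes in myeloid cells, was nearly absent from intact hemispheres and rose in both genotypes. It had 0.525, 0.299 and 0.507 CPM in intact and 10.4, 6.86 and 9.93 in lesioned wild-type hemispheres. DKK1 mice had 0, 0.246 and 0 CPM against 3.88, 4.29 and 8.31. The rise was 4.33 ± 0.49 in wild-type (edgeR adjusted p = 9.61e-05) and 5.89 ± 0.64 in DKK1 mice (edgeR adjusted p = 2.56e-05), where all 6 counts of the intact side came from library 2. The DKK1 value ran from 4.95 to 6.65 over the alternatives that kept that library. Without it the intact side had 0 counts, and no fitted size is given. Tmem221 rose from 0.312 ± 0.0626 to 1.95 ± 0.269 CPM in wild-type mice (2.63 ± 0.35, edgeR adjusted p = 0.000226). In DKK1 mice it went from 3 counts over the intact to 125 over the lesioned libraries, a ratio of 36.8 (exact 95% interval 12.3 to 181, edgeR adjusted p = 1.06e-05). Ccdc194 had 0 counts over the intact and 13 over the lesioned wild-type libraries, at least 4.08-fold higher, and 11 of the 13 came from wild-type ipsilateral 1.

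Of 13 tested members of the synapse and neuronal signalling list, 10 fell and 1 rose in each genotype, or 9 of 12 fell with Cers1 and Gdf1 counted once, with medians of −0.31 in wild-type and −0.30 in DKK1 mice. Without wild-type ipsilateral 1, 8 fell and 1 rose in wild-type mice. Over all tested genes 15.9% fell and 21.2% rose in wild-type mice, and 22.6% and 27.5% in DKK1 mice. This list too was chosen with earlier results known and is short, so its counts are a description and no result is read from them. Rasd2, a small GTPase enriched in striatal neurons, had 264, 395 and 320 CPM in intact and 122, 184 and 141 in lesioned wild-type hemispheres. Its level in DKK1 mice was 296, 280 and 360 against 158, 144 and 126. The groups did not overlap, and it fell by 1.13 on the log2 scale in both genotypes (SE 0.17 each, edgeR adjusted p = 0.000614 in wild-type and 0.000295 in DKK1 mice).

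Unc13a, which readies synaptic vesicles for release, had 649, 599 and 537 CPM in intact and 441, 453 and 420 in lesioned wild-type hemispheres. DKK1 mice had 655, 522 and 576 against 479, 402 and 389. Its change was −0.44 ± 0.10 (edgeR adjusted p = 0.00609) and −0.46 ± 0.10 (edgeR adjusted p = 0.00264). Crtc1, a neuronal coactivator of CREB, changed by −0.37 ± 0.06 and −0.40 ± 0.06 (edgeR adjusted p = 0.000759 and 0.000216). The vesicle GTPase gene Rab3a, which had the highest mean deposited TPM of the members at 232, changed by −0.30 ± 0.07 and −0.34 ± 0.07 (edgeR adjusted p = 0.00628 and 0.00158). Tmem38a, an ion channel of the endoplasmic reticulum, changed by −0.31 ± 0.08 and −0.43 ± 0.08 (edgeR adjusted p = 0.0111 and 0.000969). The 1 that rose was Homer3, a postsynaptic scaffold gene that overlaps Ddx49, from 26.6 ± 3.52 to 44.5 ± 4.85 CPM in wild-type and from 28.7 ± 4.75 to 50.8 ± 4.31 in DKK1 mice (edgeR adjusted p = 0.00134 and 0.000332).

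**Figure D4:**
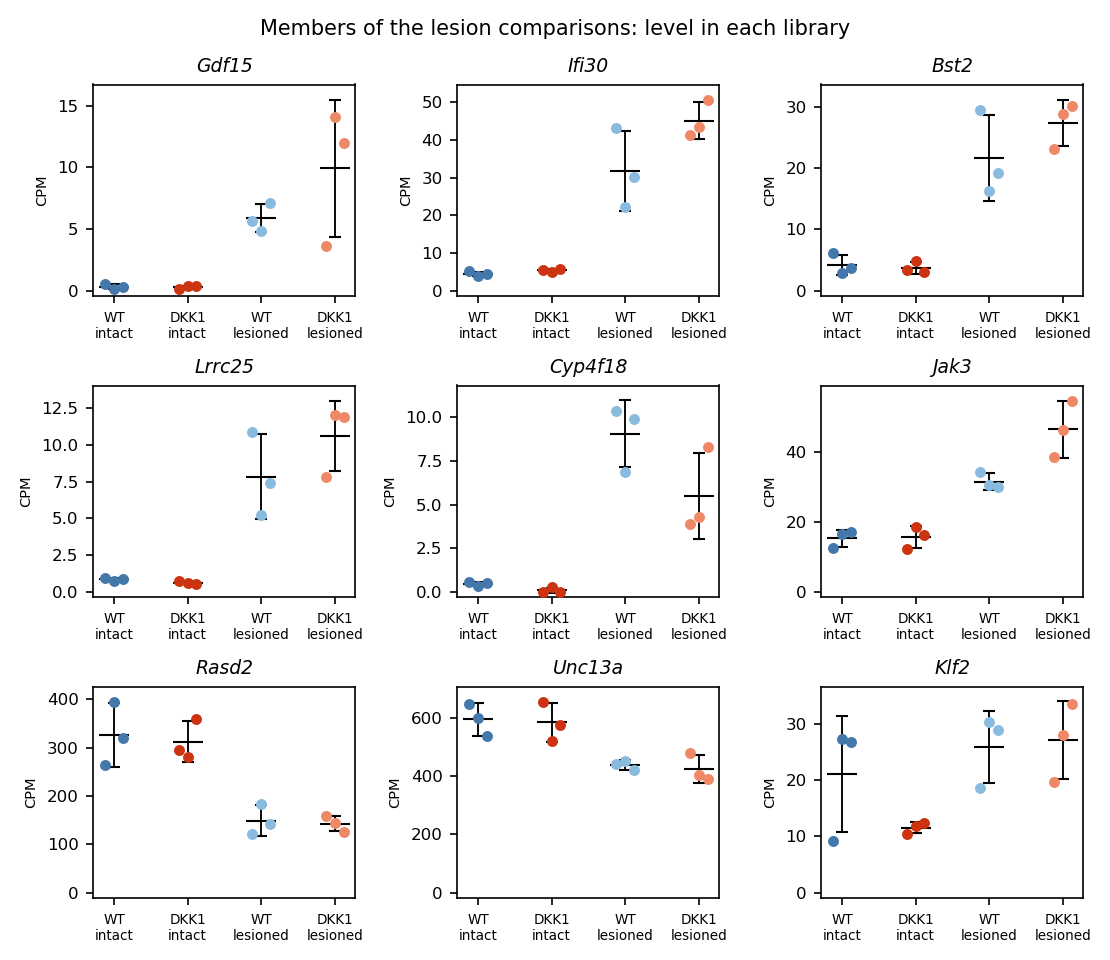
CPM in each library (points, y axis from 0) for 9 members discussed in the lesion comparisons, by genotype and hemisphere (x axis), with the group mean (horizontal line) and SD (bars, n = 3). Gdf15, Ifi30, Bst2, Lrrc25, Cyp4f18 and Jak3 are higher and Rasd2 and Unc13a lower in lesioned libraries, and Klf2 has 1 wild-type intact library at 9.19, below the other two.

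Membrane traffic and cytoskeleton genes moved both ways. In each genotype 7 of 17 rose and 4 fell, with medians of 0.14 and 0.17, and without wild-type ipsilateral 1, 3 rose and 3 fell in wild-type mice. Over all tested genes 21.2% rose and 15.9% fell in wild-type mice, and 27.5% and 22.6% in DKK1 mice. With so few genes, no result is read from the list counts. Tpm4, a tropomyosin of non-muscle cells, had 35.3, 32.5 and 33.1 CPM in intact and 82.7, 49.2 and 56.4 in lesioned wild-type hemispheres. Its level in DKK1 mice was 31.5, 26.1 and 31.5 against 74.9, 77 and 79.6. It rose by 0.90 ± 0.15 (edgeR adjusted p = 0.00126) and 1.38 ± 0.16 (edgeR adjusted p = 3.55e-05), and wild-type ipsilateral 1 was the highest of the lesioned libraries. Borcs8 rose by 0.36 ± 0.11 (edgeR adjusted p = 0.0209) and 0.58 ± 0.11 (edgeR adjusted p = 0.00104). Its wild-type call was lost without wild-type contralateral 3 (edgeR adjusted p = 0.0739) or wild-type ipsilateral 1 (edgeR adjusted p = 0.0908), and on deposited TPM, where another transcript stands for it, the value was −0.12. Fcho1 changed by −0.49 ± 0.07 in wild-type and −0.28 ± 0.07 in DKK1 mice (edgeR adjusted p = 0.00027 and 0.00508), and Rab8a rose by 0.30 ± 0.07 and 0.58 ± 0.07 (edgeR adjusted p = 0.00694 and 4.98e-05). The GTPase-activating protein gene Arhgap10, of the growth factor list, changed by −0.43 ± 0.10 in wild-type mice (edgeR adjusted p = 0.00758) and gave −0.23 ± 0.10 in DKK1 mice (edgeR adjusted p = 0.0823).

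Metabolic and mitochondrial genes split evenly, with 3 of 12 higher and 3 lower in wild-type mice and 4 higher and 3 lower in DKK1 mice. Without wild-type ipsilateral 1, 3 were higher and 2 lower in wild-type mice. Over all tested genes 21.2% were higher and 15.9% lower in wild-type mice, and 27.5% and 22.6% in DKK1 mice. The list counts are near these shares and so are no result about the list. Pgpep1, a peptidase that removes pyroglutamate, rose from 15 ± 1.92 to 27.8 ± 4.16 CPM (SD, n = 3) in wild-type and from 14.7 ± 1.45 to 31.6 ± 1.91 in DKK1 mice (edgeR adjusted p = 0.000303 and 2.77e-05). Abhd8, a hydrolase gene, changed by −0.37 ± 0.07 and −0.38 ± 0.07 (edgeR adjusted p = 0.00253 and 0.00121), and Cers1 by −0.31 ± 0.05 and −0.29 ± 0.05 (edgeR adjusted p = 0.000596 and 0.00056). Isyna1 rose by 0.29 ± 0.07 and 0.76 ± 0.07 (edgeR adjusted p = 0.00651 and 6e-06).

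Most genes of the remaining lists did not pass, while of all tested genes 37.2% passed in wild-type and 50.1% in DKK1 mice. Of 18 tested transcription factor and chromatin genes 0 rose and 1 fell in wild-type mice (Crtc1), and 3 rose and 2 fell in DKK1 mice. Among the latter Klf2 rose by 1.22 ± 0.36 (edgeR adjusted p = 0.0147), a call lost without DKK1 contralateral 1 (edgeR adjusted p = 0.0514) or DKK1 ipsilateral 3 (edgeR adjusted p = 0.058), and Zfp827 changed by −0.42 ± 0.10 (edgeR adjusted p = 0.00411). Klf2 gave 0.30 ± 0.35 in wild-type mice (edgeR adjusted p = 0.53). Of 13 RNA processing and ribosome genes 1 rose in wild-type mice, and 3 rose and 1 fell in DKK1 mice. Of 6 cell cycle and DNA repair genes the spindle gene Haus8 rose in both, by 0.65 ± 0.17 (edgeR adjusted p = 0.0121) and 0.93 ± 0.18 (edgeR adjusted p = 0.00116), and Babam1 fell in DKK1 mice (−0.18 ± 0.06, edgeR adjusted p = 0.0312), a call lost without DKK1 contralateral 2 (0.0564), DKK1 ipsilateral 1 (0.0723) or DKK1 ipsilateral 3 (0.106, edgeR adjusted p).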

How the data were processed

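RNA from 12 mouse brain libraries was sequenced with a directional kit. STAR 2.7.0f and genome build mm10, with HOMER 4.11 and DESeq2, are named per the submitters' processing notes. The authors deposited raw counts per gene and a table of TPM, whose transcript differs from that of the count table for 36 members. Genes were kept by edgeR's filterByExpr (minimum count 10), scaled by TMM and fitted over all 4 groups with edgeR 4.0.16 quasi-likelihood tests (R 4.3.3), with Benjamini-Hochberg adjustment over 17612 genes. Standard errors are from the F statistics. CPM uses TMM library sizes. The edgeR, limma-voom and DESeq2 fits were tested on simulated counts with changes set in the intact genotype comparison alone. The lesion and interaction comparisons, the replicate blocks and the other steps were not tested in this way. Alternatives were DESeq2 1.42.0, limma-voom (limma 3.58.1), other scalings, no filter, log2(TPM + 0.1), replicate blocks and leaving out each library.

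Same-numbered libraries of the 2 hemispheres of a genotype deviated together (r = 0.487, 0.31 and 0.297 in wild-type, 0.276, 0.125 and 0.105 in DKK1 mice). In wild-type mice differently numbered libraries had at most 0.152. In DKK1 mice contralateral 2 with ipsilateral 3 had 0.172, above the same-numbered 0.125 and 0.105. Across genotypes same-numbered libraries had 0.257, −0.062 and 0.096 on the intact and −0.0629, 0.111 and 0.0751 on the lesioned side. Whether the numbers pair samples within a genotype is therefore uncertain, and the main tests used no replicate block.

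The members and gene lists were chosen with earlier results of these data known. Named members are those called by genotype in both hemispheres, the largest changes of each comparison at 1 CPM or more and the smallest interaction p-values. The leading members of each list, the edge genes and those of highest TPM are named too. Others are named for a small count, an overlapping model, a call under an alternative or as examples. Some, such as Jak3, Ednra, Comp, Klf2, Ccdc194, Rex1bd, Tmem161a and Colgalt1, were picked after their values were seen. Some members are not reported here.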

Additional observations from a re-analysis of the deposited data

How the results depend on the processing

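The number of members that differed by genotype in the lesioned hemisphere ran from 8 to 29 when 1 library was left out, highest without wild-type ipsilateral 1. The interaction count was 1 with DESeq2, 1 with the replicate block and 0 to 2 when 1 library was left out. Leaving out wild-type ipsilateral 1 gave 2 (Isyna1 and Tpm4). The wild-type lesion value of Borcs8 was −0.12 on deposited TPM, where another transcript stands for the gene. With the replicate block 9 members differed by genotype on the intact side and 19 or 20 on the lesioned side, and 57 and 65 passed the wild-type and DKK1 lesion comparisons. Leaving out 1 library gave 6 to 11 on the intact side and 33 to 52 and 46 to 59 in the lesion comparisons. Counting the genes that the selection rule leaves out as well gave 10, 20, 52 and 59. Of the named members called, 6 of 9 on the intact side, 8 of 15 on the lesioned side, 23 of 28 in the wild-type and 28 of 30 in the DKK1 lesion comparison held under every alternative that gave an adjusted p. With 3 libraries a group, members of few counts such as Gm10654, Mef2b and Tmem221 have wide errors, and their values limit what can be read of a difference between hemispheres.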
